A study of Mus musculus with 4 samples.

Results

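Macrophage marker genes were read from whole-genome arrays of cultured mouse embryonic fibroblasts (MEFs), the mixed connective tissue cells that grow out of a dissociated embryo. The 10 genes were Emr1, Csf1r, Cd14, Laptm5, Cd68, Ctss, Lyz, Aif1, Tyrobp and Fcer1g, taken by their symbols in the probe table, with every probe that carries one of these symbols. They have 15 probes among the 45281 on the array, and 9 of the 10 genes had a detected probe, out of 12616 genes with one. These genes were chosen because earlier values from the same arrays had shown macrophage genes in the parental culture that were lower after TAT-Cre. Their lower signal against the parental array is therefore given as a description, and nothing rests on it as a test.

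MEFs of mixed FVB;129 strain were measured under 4 conditions, with 1 Illumina MouseWG-6 BeadChip array each. Parental MEFs received a solution without TAT-Cre and medium without virus. Rb-deleted MEFs received TAT-Cre, a Cre recombinase fused to a peptide that carries it into cells, and medium without virus. WT Rb-HA MEFs (WT Rb below) received TAT-Cre and a retrovirus with wild-type Rb, the retinoblastoma protein. ΔCdk Rb-HA MEFs (ΔCdk Rb below) received TAT-Cre and a retrovirus with a phospho-mutant Rb that Cdk kinases cannot phosphorylate. Each exposure to TAT-Cre, virus or the control medium was given as 2 treatments of 1 hr, 3 hr apart. Per the study's methods the MEFs carry floxed Rb alleles and all 4 cultures were arrested by contact, released and treated with doxorubicin, so the parental culture had intact Rb but was not free of drug. No array is from MEFs with TAT-Cre on intact Rb, or with virus and no TAT-Cre, so TAT-Cre treatment and Rb deletion cannot be told apart. The arrays are 4 sections of 1 chip, and section and condition cannot be told apart either.

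Macrophages are the resident phagocytes of embryonic tissue, where they clear dying cells, and they can be carried into primary fibroblast cultures with the tissue. They depend on signalling through Csf1r, the receptor for colony-stimulating factor 1, and their identity is maintained by the transcription factor PU.1, encoded by Spi1. Their surface carries activating receptors that signal through the adaptors encoded by Tyrobp and Fcer1g, and they hold large amounts of lysosomal enzymes. Emr1, Csf1r, Aif1 and Tyrobp are largely restricted to myeloid cells, whereas Cd14, Cd68, Ctss and lysozyme can be transcribed in other cells as well.

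Depth of the arrays was alike. Mean intensity over all probes lay between 336 and 346 arbitrary units, mean background between 39.5 and 41.0, and 15950 to 16740 probes per array were detected, that is, had a detection p-value below 0.01. The transcript of the targeted gene, Rb1, was read on the same arrays. Its probe at transcript position 4421 read 543 in parental MEFs, 160 in Rb-deleted, 181 in WT Rb and 170 in ΔCdk Rb MEFs, so the parental array stood above all 3 TAT-Cre arrays. The other Rb1 probe, at position 4002, read 108, 56.7, 51.1 and 52.9. Whether these probes lie in the deleted part, or can read the retroviral transcripts, was not determined. All values below are single arrays, so there is no replicate check and no p-value. The bead standard error that accompanies a value covers the spread of beads within an array, and not the spread between cultures.

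Emr1 encodes F4/80, the classical surface marker of mouse tissue macrophages, and gave the lowest ratios to the parental array among the 9 detected genes. Its probe at transcript position 3110 read 773 in parental MEFs (bead standard error 21.0), 247 in Rb-deleted (8.08), 203 in WT Rb (7.43) and 198 in ΔCdk Rb MEFs (7.58). After background correction and normalization the log2 ratio to parental was -1.69, -2.02 and -2.02 on these 3 arrays in turn, with a bead standard error of 0.06 to 0.07. Above background, 28.3%, 22.0% and 21.6% of the parental intensity was left. Emr1 thus remained detected on every TAT-Cre array, well below the parental array. A separate probe at position 2989 read 310, 105, 85.4 and 81.3 on the 4 arrays in the same order, and its log2 ratios were -1.78, -2.20 and -2.28. Ratios of the 2 probes differed by -0.08 (0.11), -0.19 (0.12) and -0.26 (0.11), within or little beyond 2 bead standard errors. The remaining Emr1 probe, at position 455, was not detected on any array. The leading 30 of 50 bases of the 2 detected Emr1 probes are given here because these separate stretches of the transcript gave the deepest ratios.
Emr1 at 2989: ccaaactccaggagtttcatgcaccaagga
Emr1 at 3110: cggtacaagagattaccatttttgtgtttc

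In a culture of mixed cells, fewer macrophages and less macrophage RNA per cell cannot be told apart from these values. Csf1r, the growth factor receptor on which macrophages depend, read 272 in parental MEFs (bead standard error 8.08), 159 in Rb-deleted (7.66), 134 in WT Rb (4.73) and 140 in ΔCdk Rb MEFs (5.19) at the probe at position 3495. The log2 ratios were -0.82, -1.13 and -1.02. The parental array was again the highest. WT Rb differed from Rb-deleted MEFs by -0.31 (0.10), short of 1.6-fold. The other Csf1r probe, at position 2341, was not detected on any array. Of the 2 Csf1r ligands, Il34 has no probe and Csf1, which fibroblasts secrete, read 1123, 810, 800 and 772 on the 4 arrays in the order above. Its log2 ratios to parental were -0.42, -0.43 and -0.44, short of 1.6-fold on each array.

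Cd14 is the co-receptor through which Toll-like receptor 4 senses bacterial lipopolysaccharide. Cd14 read 656 in parental MEFs (bead standard error 15.7), 297 in Rb-deleted (7.26), 293 in WT Rb (10.6) and 367 in ΔCdk Rb MEFs (10.2). Log2 ratios to parental were -1.16, -1.18 and -0.80. The ΔCdk Rb array lay above the other TAT-Cre arrays but below the parental one. Laptm5, a lysosomal membrane protein of blood cells, read 2286 (55.9), 860 (25.6), 663 (16.4) and 782 (18.6) in the same order, with log2 ratios of -1.40, -1.78 and -1.49. After Emr1 it had the lowest mean ratio of the 9 genes.

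Of the lysosomal and endosomal members, Cd68 encodes a heavily glycosylated lysosomal membrane protein and Ctss a cysteine protease that trims the invariant chain of MHC class II molecules. Cd68 read 170 in parental MEFs (bead standard error 9.65), 97.8 in Rb-deleted (4.36), 93.0 in WT Rb (6.50) and 99.9 in ΔCdk Rb MEFs (6.13), and its log2 ratios were -0.94, -1.08 and -0.90. Ctss read 186 (7.22), 93.8 (4.43), 81.1 (4.31) and 95.3 (4.79), and its log2 ratios were -1.17, -1.51 and -1.15. For both genes the TAT-Cre arrays lay between the background and the parental value. Ctss was lower in WT Rb than in Rb-deleted MEFs, with a log2 difference of -0.34 (0.14). General lysosomal genes were examined beside Cd68 and Ctss, since every cell has lysosomes. All 16 of the list were detected. On the Rb-deleted, WT Rb and ΔCdk Rb arrays 1, 0 and 2 of them were at least 1.6-fold lower than parental. Of all genes 2.98%, 2.46% and 3.30% were lower by that much. Medians of the 16 were -0.18, -0.25 and -0.26. Counting any size, 11, 12 and 14 of the 16 lay below parental, beside 47.5%, 48.6% and 50.9% of all genes. Ctsa, protective protein cathepsin A, was the lowest of the 16 on the ΔCdk Rb array at -0.93 and the highest on the Rb-deleted array at 0.60.

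Lyz is the older symbol of lysozyme, the enzyme that cleaves bacterial cell walls, and the mouse has a macrophage gene, Lyz2, and a Paneth cell gene, Lyz1. The Lyz probe, at position 1087, read 4801 in parental MEFs (bead standard error 93.5), 2976 in Rb-deleted (94.4), 2803 in WT Rb (58.0) and 3611 in ΔCdk Rb MEFs (80.4). Its log2 ratios of -0.68, -0.78 and -0.41 were among the mildest of the 9 genes, and that of the Rb-deleted array was just short of 1.6-fold, a log2 difference of 0.678. The table ties this probe to an earlier version of the transcript that the Lyz1 probes are drawn from. Yet both Lyz1 probes were at background on all 4 arrays, with detection p-values of 0.463 or more. The 2 detected probes of the macrophage gene, labelled Lyz2 and Lyzs, read 834, 461, 430 and 696 and 1202, 670, 672 and 883. Which lysozyme gene the Lyz probe reads was not determined. The Lyz1 and Lyz2 probes that start at the same transcript position are shown whole, since 7 of their 50 bases differ, in capitals, and only the Lyz2 probe gave signal.
Lyz1 at 133: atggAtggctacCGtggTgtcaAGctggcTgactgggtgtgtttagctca
Lyz2 at 133: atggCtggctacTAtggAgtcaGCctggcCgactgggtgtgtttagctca

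Aif1 encodes Iba1, a calcium-binding protein of microglia and other macrophages, and Tyrobp encodes DAP12, an adaptor that passes signals from Trem2 and related receptors. Both were dim. Aif1 read 86.9 in parental MEFs (bead standard error 3.86), 63.1 in Rb-deleted (2.51), 65.5 in WT Rb (2.49) and 58.3 in ΔCdk Rb MEFs (2.52) at position 682, with log2 ratios of -0.65, -0.63 and -0.86. Tyrobp read 97.4 (5.15), 70.2 (3.68), 67.2 (3.21) and 59.1 (3.00), with log2 ratios of -0.64, -0.80 and -1.05. For both genes the ΔCdk Rb array was the lowest, though between TAT-Cre arrays a gap beyond 2 bead standard errors was seen only for Tyrobp against the Rb-deleted array, at -0.42 (0.17). A further Aif1 probe, at position 289, was detected in parental and Rb-deleted MEFs, and one at position 802 on no array. Fcer1g, the gamma chain shared by the activating Fc receptors, read 38.3, 35.6, 38.4 and 38.8 on the 4 arrays, below the mean background of each, so no ratio is given. Macrophages use both adaptors, and signal was seen for Tyrobp alone. The Fcer1g probe was the single probe of that gene, and whether it can report the transcript was not tested. Probes of the 2 dim genes are shown whole, and that of Fcer1g by its leading 30 bases.
Aif1 at 682: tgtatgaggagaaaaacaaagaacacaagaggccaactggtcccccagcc
Tyrobp at 265: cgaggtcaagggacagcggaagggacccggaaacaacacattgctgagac
Fcer1g at 308: cagaacagacgtgcttggctgcattctttt

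**Figure D1:**
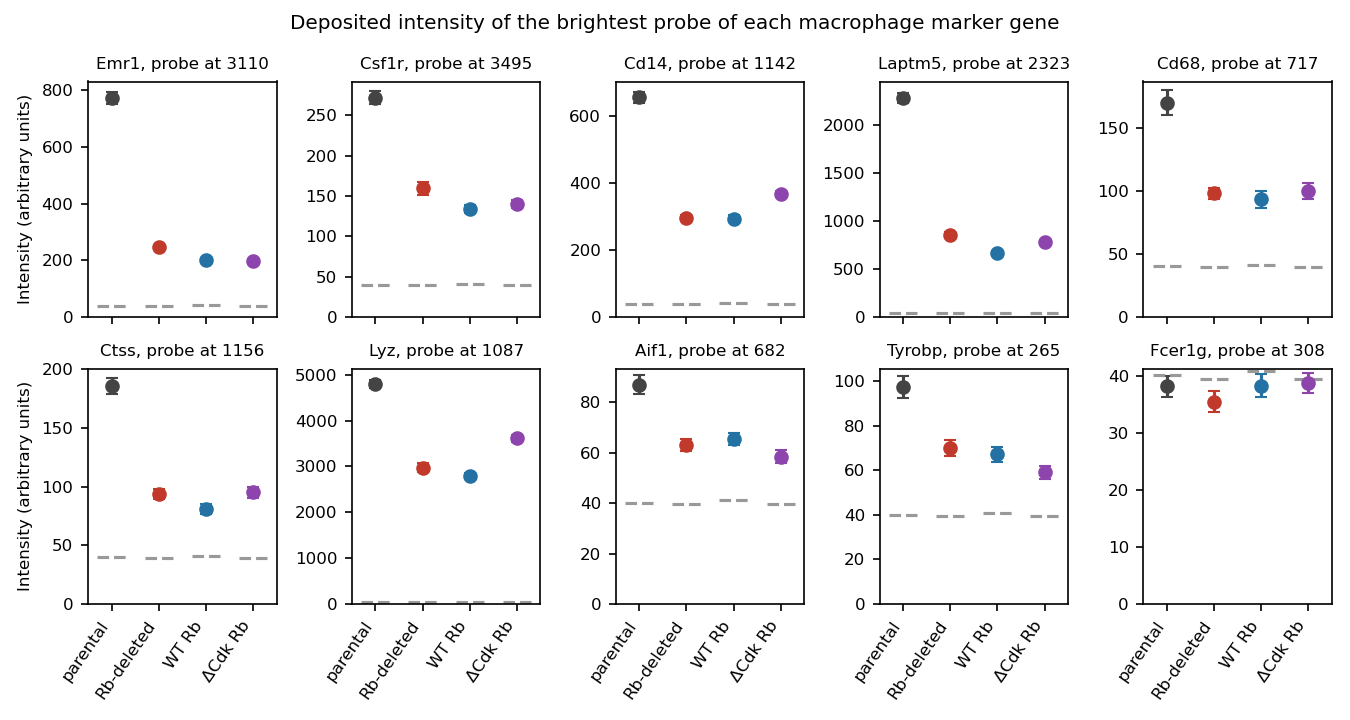
Deposited intensity in arbitrary units, on a linear axis from 0, of the brightest probe of each of the 10 macrophage marker genes on the 4 arrays. Points are single arrays, bars are bead standard errors, dashes are the mean background of each array and the number in each title is the transcript position of the probe. In 9 panels the parental array is the highest, and the Fcer1g probe stays at background.

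Taking the 9 detected genes as a list, 6 were at least 1.6-fold lower than parental on the Rb-deleted array, against a background of 2.98% of all genes lower by that much. On the WT Rb array 8 of 9 passed, against 2.46% of all genes. On the ΔCdk Rb array 8 of 9 passed, against 3.30%. Those that did not pass were Lyz, Aif1 and Tyrobp on the Rb-deleted array, Aif1 on the WT Rb array and Lyz on the ΔCdk Rb array. Medians over the 9 genes were -0.94, -1.13 and -1.02 on the log2 scale, or 1.92-fold, 2.19-fold and 2.03-fold lower, beside medians over all genes of 0.02, 0.01 and -0.01. All 3 comparisons use the same parental array, and the rule for the genes used these contrasts, so the counts describe the choice of genes.

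Ratios differed in size between members, and whether probes, genes or cells account for the spread was not tested. The log2 ratios had an SD between members of 0.37, 0.47 and 0.46 on the Rb-deleted, WT Rb and ΔCdk Rb arrays, while their median bead standard error was 0.08 to 0.09. The mildest ratio was that of Tyrobp on the Rb-deleted array, Aif1 on the WT Rb array and Lyz on the ΔCdk Rb array, and Emr1 was the lowest on each. The offset added before the logarithm draws dim probes, such as those of Aif1 and Tyrobp, toward a ratio of 1. On the linear scale, with background subtracted, the share of the parental intensity that was left ranged from 28.3% for Emr1 to 61.7% for Lyz in Rb-deleted MEFs, around a median of 45.0%. It ranged from 22.0% to 58.0% on the WT Rb array and from 21.6% to 75.0% on the ΔCdk Rb array, with medians of 40.3% and 40.1%, and the ends of each range were again Emr1 and Lyz.

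**Figure D2:**
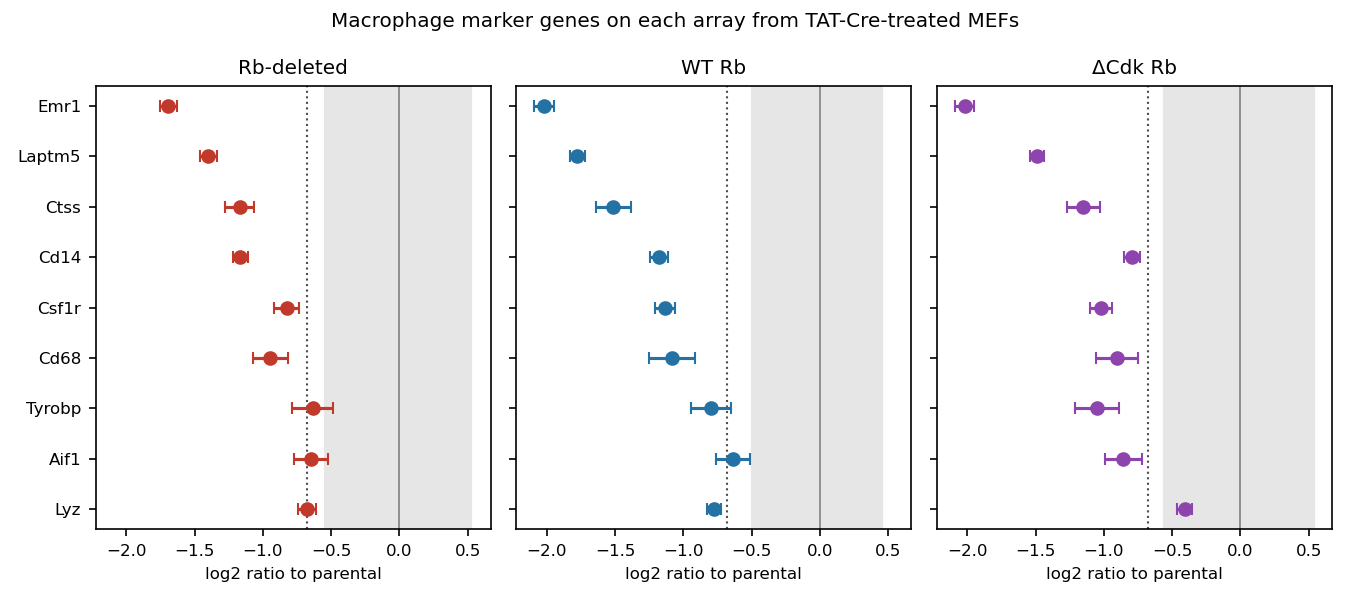
Log2 ratio to the parental array of the 9 detected macrophage marker genes, with 1 panel for each array from TAT-Cre-treated MEFs. Points are the brightest probe of each gene and bars its bead standard error, the grey band holds the middle 90% of all 12616 genes, the solid line marks 0 and the dotted line 1.6-fold lower. Every point lies below 0, and all but that of Lyz on the ΔCdk Rb array lie outside the grey band.

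Between the 3 TAT-Cre arrays none of the 9 genes differed by 1.6-fold. The pairs were WT Rb against Rb-deleted, ΔCdk Rb against Rb-deleted and ΔCdk Rb against WT Rb MEFs. Of all genes 1.02%, 4.26% and 1.85% differed by that much in either direction. At such shares a list of 9 would hold few or none, so the count does not set these genes apart. Medians of the 9 log2 differences were -0.16, -0.09 and 0.18 for these pairs. In each pair 4 of 9 genes differed by more than 2 bead standard errors, beside 33.8%, 48.3% and 36.5% of all genes. A difference of that size was thus not particular to them. The 4 of a pair were all lower in WT Rb than in Rb-deleted MEFs, and all higher in ΔCdk Rb than in WT Rb MEFs. Against Rb-deleted MEFs, 2 were higher and 2 lower in ΔCdk Rb MEFs. Counting any size, 8 of the 9 were lower in WT Rb than in Rb-deleted MEFs, beside 53.7% of all genes. Single arrays do not bound how far independent cultures would vary.

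Individual members differed in where the ΔCdk Rb array stood. Cd14 was higher on it than on the Rb-deleted array by 0.37 (bead standard error 0.06) and than on the WT Rb array by 0.38 (0.07). Lyz was higher by 0.27 (0.06) and 0.37 (0.04). Laptm5 and Ctss were higher than on the WT Rb array by 0.29 (0.05) and 0.36 (0.15), but differed from the Rb-deleted array by -0.09 (0.06) and 0.02 (0.13). Emr1 went the other way, with -0.33 (0.08) against Rb-deleted and -0.00 (0.09) against WT Rb MEFs, and Tyrobp differed from the Rb-deleted array by -0.42 (0.17). So the 2 genes that stood above both other TAT-Cre arrays on the ΔCdk Rb array by more than 2 bead standard errors were Cd14 and Lyz. Which cells carried their signal was not tested. The probes labelled Lyz2 and Lyzs showed the same order, with differences of 0.68 (0.09) and 0.46 (0.08) against Rb-deleted and 0.78 (0.08) and 0.45 (0.09) against WT Rb MEFs.

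**Figure D3:**
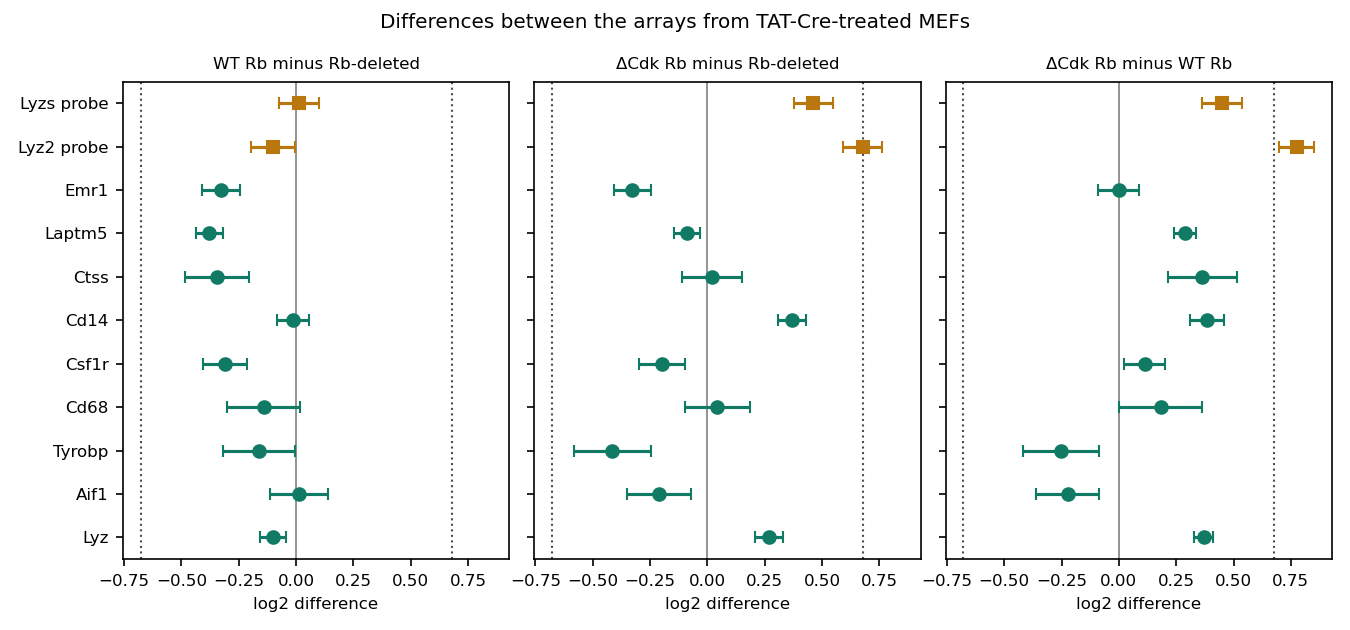
Log2 differences between pairs of the 3 arrays from TAT-Cre-treated MEFs for the 9 detected macrophage marker genes (circles) and the 2 detected probes labelled Lyz2 and Lyzs (squares), with bead standard errors as bars. Dotted lines mark 1.6-fold either way. All circles lie within the dotted lines, and Cd14, Lyz and both squares lie to the right of 0 in each panel that subtracts another array from ΔCdk Rb.

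The wider macrophage programme was read from 4 lists of 83 other genes, of which 48 were detected, 33 were not and 2 have no probe. At least 1.6-fold lower than parental were 28, 30 and 31 of the 48 on the Rb-deleted, WT Rb and ΔCdk Rb arrays, and none was higher by that much. Medians were -0.80, -0.92 and -0.87. With an offset of 50 in the background correction 14, 18 and 14 passed, and with no background correction 13, 15 and 14, with medians of -0.48, -0.50 and -0.47 and of -0.46, -0.48 and -0.45. The filter favours such genes, because 11 of the 48, Spi1, Irf8, Btk, Rac2, Was, Fyb, Fcgr1, Fcgr2b, Tlr7, Tlr13 and Cd180, were detected on the parental array alone and had to be lower elsewhere. For most of these the lower bound on the fold was short of 1.6. Among the 28 detected on all 4 arrays, 18, 16 and 16 were lower by 1.6-fold, with medians of -0.96, -0.96 and -0.90, beside 2.60%, 1.99% and 2.89% of all genes so detected. These genes overlap in kind with the members and were listed with leukocyte values of these arrays already known, so they are a fuller description of the same contrast.

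On the WT Rb and ΔCdk Rb arrays the lowest of the secreted and effector genes lay below every member. On the Rb-deleted array the lowest lay near Emr1, whose detected probes gave -1.78 and -1.69. Ccl4, a chemokine that draws monocytes and T cells, read 495 in parental MEFs, 159 in Rb-deleted, 108 in WT Rb and 94.8 in ΔCdk Rb MEFs, with log2 ratios of -1.76, -2.46 and -2.68. Ccl3, its neighbour in sequence and function, read 186, 69.9, 65.7 and 51.9, with log2 ratios of -1.78 and -1.98 on the Rb-deleted and WT Rb arrays, and was not detected in ΔCdk Rb MEFs, where it was at least 5.05-fold lower. Ccl9, a further chemokine of myeloid cells, read 578, 181, 129 and 175, with log2 ratios of -1.78, -2.36 and -1.79. These 3 had the lowest mean ratios of the 48 genes. The perforin-like Mpeg1, which attacks engulfed bacteria, gave -1.78, -1.97 and -1.86, and the complement genes C1qb and C1qc, made by tissue macrophages, gave -1.56, -1.67 and -2.00 and -1.68, -1.44 and -1.52. Of the 12 genes of this list detected on all 4 arrays, 8, 8 and 7 were lower by 1.6-fold.

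At the other end of the myeloid genes were Cyba and Lgals3, and which cells carried their signal was not tested. Cyba, a subunit of the NADPH oxidase, read 1837, 2285, 2119 and 2428, with log2 ratios of 0.38, 0.26 and 0.48. Lgals3, the lectin galectin-3, read 8854, 10893, 10241 and 8866, with log2 ratios of 0.35, 0.21 and 0.02. Slc11a1 and Gpnmb of the same list were also short of 1.6-fold on each array. Slc11a1 read 665, 587, 581 and 733, with log2 ratios of -0.15, -0.15 and 0.24, and Gpnmb gave -0.36, -0.29 and -0.26. Clec4n, the lectin Dectin-2, was detected in ΔCdk Rb MEFs alone, reading 59.5 there and 47.7 to 54.0 on the other arrays. No ratio is given for this near-background probe, although its fitted mean ratio placed it with Cyba and Lgals3.

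Among surface receptors, 5, 4 and 4 of the 8 genes detected on all 4 arrays were lower by 1.6-fold. Toll-like receptor 2 (Tlr2) gave log2 ratios of -1.37, -1.29 and -1.18, and the lipid receptor Trem2 -1.03, -1.39 and -1.30. Short of 1.6-fold on each array were Sirpa at 0.38, 0.12 and -0.34, Mertk at -0.07, -0.47 and -0.41 and Tlr4 at -0.38, -0.39 and -0.59. The fractalkine receptor Cx3cr1 gave -1.05 and -1.11 on the Rb-deleted and ΔCdk Rb arrays, and was not detected on the WT Rb array, where it was at least 2.13-fold lower. Cd53, a tetraspanin of all leukocytes, departed from this order. It read 218 in parental MEFs, 116 in Rb-deleted, 148 in WT Rb and 266 in ΔCdk Rb MEFs, so its ratio was -1.04 on the first TAT-Cre array and 0.39 on the last. The lectin Clec4d was also higher in ΔCdk Rb than in Rb-deleted MEFs, by 0.62. In the list of hematopoietic signalling and cytoskeletal genes, 5, 4 and 5 of the 7 genes detected on all 4 arrays were lower by 1.6-fold. Among them were Evi2a at -1.37, -1.41 and -1.26 and the actin-bundling Lcp1 at -1.01, -1.09 and -1.28. Arhgdib at -0.36, -0.38 and -0.17 and Plcg2 at -0.32, -0.42 and -0.35 were short of 1.6-fold on each array. Of the myeloid transcription factors, Spi1 and Irf8 were detected on the parental array alone, at 61.6 and 57.6, and Runx1 gave -0.06, -0.24 and -0.28.

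Several genes that define macrophages or leukocytes at large were not detected on any array. They included Itgam (CD11b), Itgax (CD11c), Ptprc (CD45), Cd163, the oxidase subunit Cybb and the transcription factors Cebpa and Ikzf1. Detection was thus incomplete for the macrophage label, with Fcer1g missing among the members and Ptprc and Itgam missing outside them. Of the members largely restricted to myeloid cells, Emr1 and Csf1r read 19.2 and 6.77 times the mean background on the parental array. Aif1 and Tyrobp read 2.16 and 2.42 times. The brightest members there were Lyz, whose gene was not determined, and Laptm5, at 120 and 56.9 times.

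Markers of other cells were read with the same rule. No B cell marker was detected of 6 with a probe. Of 12 T cell and NK cell markers, Cd3e, Cd247 and Lck were detected, at 53.9 to 85.3, and neither Cd3e nor Cd247, detected on all 4 arrays, differed from parental by 1.6-fold. Of 9 mast cell markers Kit, Cma1, Tpsab1 and Hdc were detected, and Hdc, the histamine-forming enzyme, had a log2 ratio of -1.12 on the Rb-deleted array. Hdc was undetected in WT Rb and ΔCdk Rb MEFs, which bounds its fold at 2.14 or more and 2.24 or more below parental. Kit, Cma1 and Tpsab1 read 45.4 to 66.4 over the 4 arrays. Among the neutrophil markers S100a8 alone was detected. It read 150, 128, 165 and 311, so that the ΔCdk Rb array stood above parental by 1.25. Among erythroid and platelet markers, the platelet chemokine Ppbp read 102, 71.1, 95.5 and 238, with log2 ratios of -0.68, -0.13 and 1.51, and Itga2b was dim at 43.8 to 58.1. Emcn was the only endothelial marker detected, at 49.4 to 62.6, and the epithelial markers Cdh1, Krt8, Krt18 and Krt19 lay between 44.6 and 120. S100a8, Ppbp and Cd53 had their highest reading on the ΔCdk Rb array, where Cd14 and lysozyme also stood above the other TAT-Cre arrays, and whether these belong together was not tested.

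All 14 fibroblast markers were detected. Those at least 1.6-fold lower than parental numbered 1, 0 and 2 on the Rb-deleted, WT Rb and ΔCdk Rb arrays. Of all genes 2.98%, 2.46% and 3.30% were lower by that much. Medians of the 14 markers were -0.11, 0.04 and -0.19. Col3a1 was lower at -0.73, -0.60 and -0.98 and Postn at -0.37, -0.30 and -1.26, both of them secreted matrix proteins. Vim, the intermediate filament of mesenchymal cells, gave -0.07, 0.19 and -0.04, Col1a1 gave -0.15, 0.05 and -0.34, Col1a2 gave -0.36, -0.19 and -0.45 and Fn1 gave -0.22, -0.06 and 0.13. The platelet-derived growth factor receptors Pdgfra and Pdgfrb gave -0.15, -0.59 and -0.63 and 0.30, 0.05 and -0.65. All 14 markers were detected on every array, which does not measure the share of fibroblasts in the cultures. The remaining fibroblast markers, Thy1, Dcn, Lum, S100a4, Twist1 and Prrx1, lay between -0.50 and 0.41.

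Interferon-induced genes, like the macrophage genes, were lower on the TAT-Cre arrays than on the parental one. Of the 13 detected on all 4 arrays, 13 were at least 1.6-fold lower than parental on each TAT-Cre array, with medians of -2.26, -2.25 and -3.29. Among them the lowest on the Rb-deleted and ΔCdk Rb arrays was Ifit3, at -2.75 and -4.30, and on the WT Rb array Rsad2, at -3.36, both antiviral genes. The RNA sensor Ddx58 was the highest of them in WT Rb and ΔCdk Rb MEFs, at -1.32 and -1.84. The chemokine Cxcl10 gave -3.47 and -3.11 on the Rb-deleted and WT Rb arrays, and was not detected on the ΔCdk Rb array, where it was at least 17.8-fold lower. Mx1 was detected on the parental array alone and passed the filter through it. Summed over the 17 interferon-induced genes detected on at least 1 array, intensity above background was 21120 in parental MEFs, 4061 in Rb-deleted, 3839 in WT Rb and 1460 in ΔCdk Rb MEFs. That of the 9 macrophage genes was 8966, 4509, 4034 and 5054, most of it from the Lyz probe. By these sums the lowest array was ΔCdk Rb for the interferon list and WT Rb for the macrophage list. Singly, Emr1, Aif1 and Tyrobp read lowest on ΔCdk Rb and the other members on WT Rb. From Rb-deleted to ΔCdk Rb MEFs, 12 of the 17 interferon-induced genes were at least 1.6-fold lower, beside 246 of 12616 genes. Their median difference was -1.04, and that of the 9 macrophage genes was -0.09. Macrophages can make and answer interferon, and Ctss among the members is interferon-inducible. The part of interferon in the macrophage values was not tested.

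**Figure D4:**
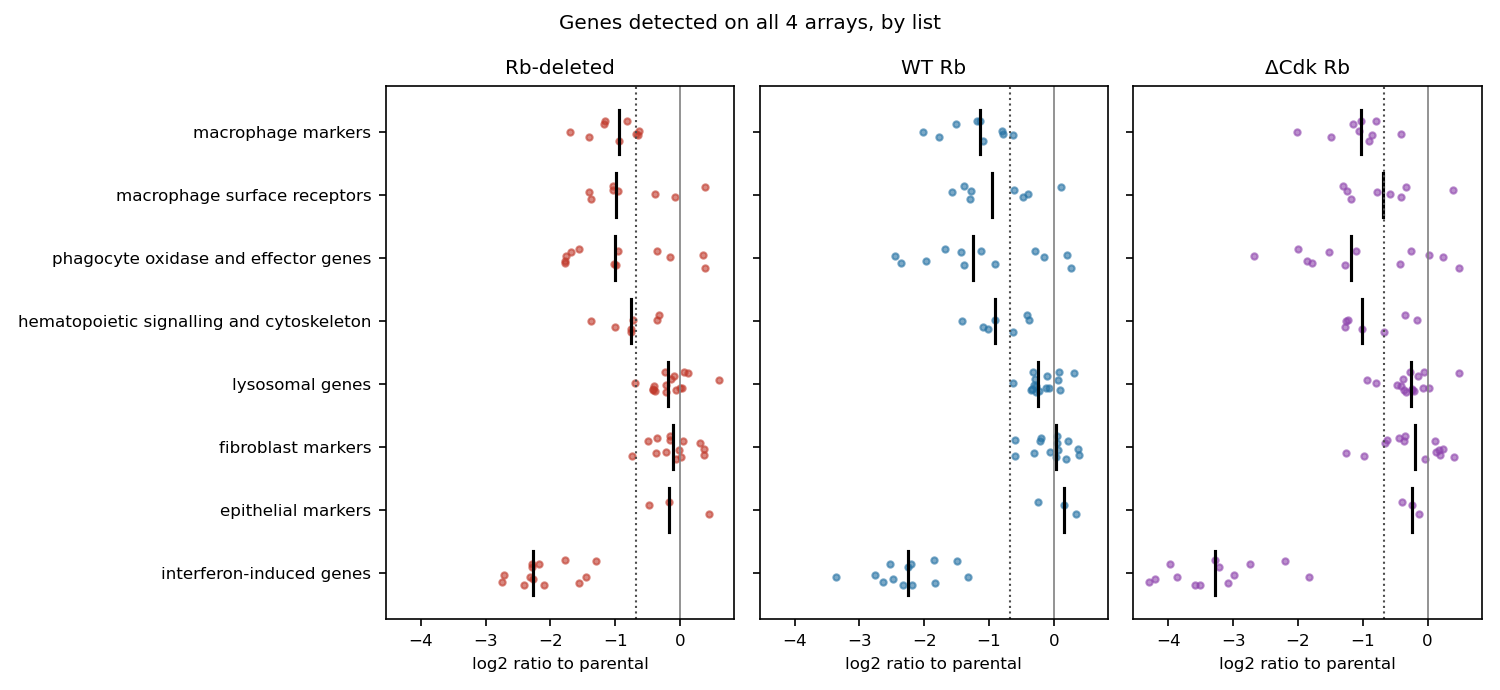
Log2 ratio to the parental array of the genes detected on all 4 arrays, for each list with at least 3 of them, on the 3 arrays from TAT-Cre-treated MEFs, with points for genes, black ticks for list medians, a solid line at 0 and a dotted line at 1.6-fold lower. Macrophage genes and 3 myeloid lists lie mostly left of 0, lysosomal and fibroblast markers lie closer to 0 on both sides, and interferon-induced genes lie farthest left, with medians of -2.26, -2.25 and -3.29.

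Genes whose 3 ratios lay nearest to the median profile of the macrophage genes, -0.94, -1.13 and -1.02, were ranked by Euclidean distance among 10829 genes detected on all 4 arrays. The nearest 10 were Pld4, Fcgr4, Vcam1, Lgals9, Psmb8, Bat2d, Nampt, Ptpn6, Ascc3 and Tor1aip1, at distances of 0.08 to 0.24. Pld4, an endolysosomal nuclease of myeloid cells, read 102 in parental MEFs, 62.9 in Rb-deleted, 60.5 in WT Rb and 60.0 in ΔCdk Rb MEFs. Fcgr4, a receptor for the Fc part of IgG, read 128, 80.4, 72.6 and 70.8, and Ptpn6, a phosphatase of blood cells, read 93.6, 64.0, 59.3 and 58.0. The adhesion molecule Vcam1 read 2372, 1157, 1165 and 1184 and the immunoproteasome subunit Psmb8 963, 475, 474 and 415, and both are also inducible in fibroblasts. Only 2 of the 9 macrophage genes lay nearer to their own median profile than the tenth of these, so a profile over 3 ratios does not single macrophage genes out.

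PU.1 binds purine-rich sites with the core GAGGAA, so this motif was looked for in the 250 bases before the gene start, on both strands, in the RefSeq promoters of build GRCm38.p6. Promoters of 6 of the 10 genes were matched. GAGGAA was found in those of Ctss, Laptm5, Cd68 and Aif1, 4 of 6, and in 23.3% of 32851 promoters. For the Lyz probe the promoter matched was that of Lyz1, the gene to which its Entrez number leads. The overlapping motif AGGAAGT was found in that Lyz1 promoter, 1 of 6, and in 7.69% of promoters, and their union GAGGAAGT in none of the 6 and in 2.44%. The stretches around the GAGGAA matches are printed on the strand of the gene, with the match or its reverse complement TTCCTC in capitals. A match describes letters in the window and is not evidence of binding.
Ctss, chr3:95526602-95526647, plus strand: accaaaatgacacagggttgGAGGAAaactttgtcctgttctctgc
Laptm5, chr4:130913258-130913303, plus strand: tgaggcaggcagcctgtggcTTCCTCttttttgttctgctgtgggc
Cd68, chr11:69666370-69666415, minus strand: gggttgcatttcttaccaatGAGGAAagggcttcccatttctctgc
Aif1, chr17:35176053-35176079, minus strand: ccgtggtgataggcacccagTTCCTCc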

How the data were processed

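Arrays were assigned to conditions from the titles and treatments in the labels. The authors deposited the intensity of every probe, averaged over its beads on a linear scale and without normalization between arrays. For each probe and array they also deposited a detection p-value, a bead standard error and a bead count, whose median was 44. How the authors processed these values further is not given in the sources used here. Labelled cRNA came from total RNA of each culture, and nothing in the labels points to pooled or repeated cultures.

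From these, limma 3.58.1 in R 4.3.3 was used for normexp background correction (offset 16), where the detection p-values served to infer the background distribution. Quantile normalization across the 4 arrays and a log2 transformation followed. A probe counted as detected if its p-value fell below 0.01 on 1 or more arrays, which left 17746 probes and 12616 genes, each gene being read from its brightest probe. The threshold of 1.6-fold is the filter of the study. Bead standard errors were carried through each array's mapping from intensity to log2 value and combined over both arrays of a ratio. A lower bound was given for a probe not detected on the dimmer array, taking the higher of its own value and the lowest detected value there. No test was run with 1 array per condition, and no paired analysis was possible because the labels carry no replicate numbers. The number of arrays limits the precision. The remaining steps ran in Python 3.11.15 (pandas 2.3.3, numpy 2.4.6, matplotlib 3.10.9), and the calculation was tested on simulated data.

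A date stood in place of the symbol for 44 probes, of which 34 were given back their symbol by Entrez number through a RefSeq table of assembly GRCm38.p6. Probe sequences are from the table and promoters from RefSeq. Genome positions of probes are not given, since their build is not stated.

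The 10 genes, the 16 lists, the alternatives and the rule for named genes were chosen with earlier results of these data known. Named were every probe of the 10 genes, detected myeloid genes with the 3 lowest and 3 highest in full, the Csf1r ligands, detected markers of other cell types and fibroblasts, the ends of the lysosomal and interferon lists (of the latter, also among genes detected on all 4 arrays), and the 10 genes nearest in profile. A few single-gene values that this rule covers are not reported here. Other lysozyme probes were added beside the Lyz probe, and Rb1 as the targeted gene. Alternatives varied the offset and method of background correction, the normalization, the dim-probe filter, how probes of a gene were combined, the fold threshold and whether bead error entered a call.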

Additional observations from a re-analysis of the deposited data

How the results depend on the processing

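The 189 alternative values of single macrophage genes against parental were all below 0, and 64 of them moved by more than their bead standard error. The genes were chosen for lying below parental, so the common sign describes that choice. Asking for probes detected on all 4 arrays also left each of these values as it was. Scaling to a common median in place of quantile normalization, taking the mean of all detected probes, no filter on dim probes, probes detected on all 4 arrays and asking for 2 bead standard errors besides the fold left 6, 8 and 8 of the 9 genes past 1.6-fold on the Rb-deleted, WT Rb and ΔCdk Rb arrays. At 1.5-fold 9, 9 and 8 passed, beside 540, 445 and 570 of all genes, and at 2-fold 4, 6 and 5 passed, beside 158, 150 and 180. With an offset of 50 their medians were -0.71, -0.93 and -0.74, those of the other myeloid genes -0.48, -0.50 and -0.47, with 6, 7 and 6 macrophage genes and 14, 18 and 14 other myeloid genes past 1.6-fold. With no background correction the same values were -0.68, -0.91 and -0.73 and -0.46, -0.48 and -0.45, with 5, 7 and 5 macrophage genes and 13, 15 and 14 other myeloid genes past 1.6-fold. With probes detected on all 4 arrays 18, 16 and 16 myeloid genes passed, with a median of -0.96 on the Rb-deleted array, and with no filter the myeloid medians were -0.32, -0.39 and -0.35, since undetected genes entered. Subtracting the mean background with no offset, chosen after seeing the data, gave medians of -1.12, -1.26 and -1.25 for the macrophage genes and -1.29, -1.52 and -1.46 for the other myeloid genes. Over all genes, 215, 174 and 234 passed with the offset of 50, 197, 164 and 229 with no background correction, and 751, 591 and 702 with the mean subtracted. Sizes of the ratios of dim genes such as Aif1 and Tyrobp thus depend on the background correction, while their direction did not change under these alternatives.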
